A study of Mus musculus with 147 samples.

Results

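The genes described here are 10 members of the Notch pathway, chosen by name among the 35438 genes counted in single renin cells of the mouse kidney. They comprise 3 receptors (Notch1, Notch2 and Notch3), 2 ligands (Jag1 and Dll4), the DNA-binding factor Rbpj and 4 target genes (Hes1, Hey1, Hey2 and Heyl). All 10 symbols were found in the count tables, and the rule that names them uses no measured value, although earlier results of these data were known when it was set. They were compared between renin cells with an intact renin gene and cells sorted in the same way from mice in which renin had been deleted.

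YFP-positive cells were sorted from the kidney cortex of C57BL/6 mice, held singly in the wells of a Fluidigm C1 chip and their RNA copied whole by the SMART-Seq v4 kit, which keeps no molecular identifiers. WT renin cells (51 wells) came from Ren1c+/+ Ren1c-YFP mice, and Renin-null cells (96 wells) from Ren1c-KO mice (Ren1c-/- Ren1c-YFP). Because the Ren1c-YFP transgene puts YFP under Ren1c control, the sort aimed at cells with an active renin promoter in either genotype. Some Renin-null wells held many counts of markers of other cell types, as described below. By their titles the Renin-null wells formed 2 sequencing libraries of 48 wells each, YFP1 and YFP2. The WT titles name no library, and the WT wells are treated here as 1 library. The labels tie no well to a mouse, a capture or an age, so each genotype is 1 sample, no test between genotypes was run, and genotype, capture and library cannot be told apart.

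Notch receptors are single-pass proteins that are cut after a ligand of the Jagged or Delta-like family on a neighbouring cell binds them. The released intracellular part enters the nucleus and joins Rbpj, which otherwise sits on its sites with corepressors, and the complex turns on genes of the Hes and Hey families, which encode transcriptional repressors. In blood vessels Notch3 and Jag1 are best known in smooth muscle and pericytes and Dll4 in arterial endothelium, and in the kidney Rbpj is known to act in cells of the renin lineage.

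The deleted gene separated the genotypes. Ren1 held 19003442 counts over the WT wells and 54 over the Renin-null wells. Expression is given as counts per 1000000 counts (CPM) of a well or of all wells of a genotype summed, and genotypes are compared as the log2 ratio of summed CPM, Renin-null over WT. Wells held 26401 to 17124854 counts in WT and 3628 to 14505243 in Renin-null cells. Wells that reached 100000 counts and 1000 genes with a mitochondrial share of 25% or less are called passing wells here and numbered 15 of 51 in WT and 57 of 96 in Renin-null cells (28 in YFP1 and 29 in YFP2). These passing wells held 75.7% of the WT counts and 89.03% of the Renin-null counts.

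Some wells were not independent of each other. In the Renin-null libraries 4 pairs of wells were nearly the same cell by their expression (Pearson r of log2 CPM at least 0.974, the next pair 0.896), and 3 of these 4 pairs joined a YFP1 well with a YFP2 well, and whether the same cells were read in both libraries was not tested. In the WT library, low counts of some members also followed the sequencing index of the richest well. Among the wells sharing an index with the highest WT well of Rbpj, 73.3% of 15 held a count of this gene, against 20.0% of the other 35, and for Heyl it was 92.9% of 14 against 33.3% of 36. For Notch1 it was 85.7% of 14 against 30.6% of 36. For Hey2 the WT shares were 28.6% and 25.0%. No such gap was seen for Rbpj in YFP1 (35.7% against 42.4%) or YFP2 (38.5% against 53.1%), while in YFP2 Notch3 had 100% against 80.6% and Hey2 57.1% against 38.7%. A limit of 10 counts, and also one of 100 counts, was therefore used to count wells with a gene. The lower limit did not remove the pattern for Rbpj, since 4 of the 7 other WT wells that reached it shared an index with the highest well, while the 2 that reached 100 counts did not. Intervals at 95% are exact. Those of levels and ratios cover the counting error of reads only, and those of shares treat wells as independent.

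The RBPJ protein binds a short core, TGGGAA, and often a longer form, GTGGGAA. These letters were searched on both strands of RefSeq promoter windows of 250 bases before to 50 bases after the start of transcription (GRCm38.p6), which were matched by symbol for 7 of the 10 members. The reverse complements are TTCCCA and TTCCCAC, and each match of the longer form also contains the shorter. Of the 7 members, 2 held the core, Rbpj itself and Hey2, against 28.3% of all 27025 genes with a window. The longer form was present in Hey2, at 2 places, and in none of the other 6 windows, against 7.25% of all genes with at least 1 such match and 0.256% of 32851 windows with at least 2. Both windows are shown because they carry every match among the members, with the longest matching form in capitals. The windows of Notch1, Notch2, Notch3, Jag1 and Dll4 held no TGGGAA.
Hey2, chr10:30842781-30843033, minus strand, ending 3 bases past the start: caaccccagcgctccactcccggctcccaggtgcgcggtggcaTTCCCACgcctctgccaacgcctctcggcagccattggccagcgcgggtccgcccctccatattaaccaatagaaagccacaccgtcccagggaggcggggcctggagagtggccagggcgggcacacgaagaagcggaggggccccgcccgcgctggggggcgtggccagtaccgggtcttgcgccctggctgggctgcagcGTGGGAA
Rbpj, chr5:53590096-53590345, plus strand, ending at the start: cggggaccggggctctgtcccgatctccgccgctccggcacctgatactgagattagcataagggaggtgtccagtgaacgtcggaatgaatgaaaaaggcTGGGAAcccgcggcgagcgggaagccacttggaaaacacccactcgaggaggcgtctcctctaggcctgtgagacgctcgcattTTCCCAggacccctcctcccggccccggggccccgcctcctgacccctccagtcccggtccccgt
Counted from the start of transcription, the first bases of the Hey2 matches were at -207, on the strand opposite to the gene, and at -4, on its own strand. Those of Rbpj were at -149 on the gene's strand and at -65 on the other, and another Rbpj window, which begins at base 53590236, overlaps the one shown and repeats the latter match. A match is a description of these letters and does not show that the factor was bound.

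Among the receptors, Notch2 was the most evenly expressed and Notch3 was lower in Renin-null cells, while Notch1 was carried by a few wells. Notch2 lies on chromosome 3 (98013527 to 98150361). Its level was 747 CPM over the WT wells and 673 CPM over the Renin-null wells, a log2 ratio of -0.15 (95% interval -0.16 to -0.14). Single WT wells ranged from 0 to 1851 CPM with a median of 19.4, and Renin-null wells from 0 to 3337 with a median of 223. The ranges overlapped, the Renin-null wells reaching higher, and the higher median of the Renin-null wells went with their larger share of passing wells. Within passing wells the order was the other way, with medians of 903 CPM in WT, 448 in YFP1 and 696 in YFP2, and 18 of 57 Renin-null wells were above the WT median. The log2 ratio was -0.68 for YFP1 and 0.18 for YFP2, so its sign depended on the library.

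Notch3, the receptor best known in vascular smooth muscle, lies on chromosome 17 (32120820 to 32166852). Its summed level was 310 CPM in WT against 145.5 CPM in Renin-null cells, with a log2 ratio of -1.09 (-1.11 to -1.07). WT wells ranged from 0 to 5186 CPM (median 4.84) and Renin-null wells from 0 to 1762 CPM (median 5.76). In passing wells the median was 279 CPM in WT against 22.4 CPM in Renin-null cells, and 7 of 57 Renin-null wells lay above the WT median. At least 100 counts of Notch3 were found in 14 of the 15 passing WT wells and in 32 of the 57 passing Renin-null wells. Over all wells the order was the other way, with at least 10 counts in 37.3% of WT against 42.7% of Renin-null wells and, thinned to 62000 counts each, a count in 38.8% of 49 against 55.4% of 83, in both cases with overlapping intervals. The Renin-null libraries themselves differed widely, with at least 100 counts in 10 of 28 passing wells and a median of 2.82 CPM in YFP1, and in 22 of 29 and 90.7 CPM in YFP2. The ratio was negative against either library, at -1.99 for YFP1 and -0.62 for YFP2, and without the highest well of each genotype it was -0.84. The highest counts of Notch3 in YFP1 (5271) and in YFP2 (9124) were in wells 47 and 95, a near-identical pair, and counting such pairs once gave -1.26.

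Notch1, the receptor with the broadest known roles, lies on chromosome 2 (26457903 to 26516663). It was summed to 45.9 CPM in WT against 26.7 CPM in Renin-null cells, with a log2 ratio of -0.78 (-0.82 to -0.74), but the median well of both genotypes held no count. A single WT well that did not pass (well 22, with 73.9% mitochondrial counts) held 5261 counts at 7124 CPM, which was 57.9% of the WT total. Over passing wells the ratio was 0.50, with 20.4 CPM in WT against 28.8 CPM in Renin-null cells, so the direction turned. Another single well (well 5) held 95.3% of the passing WT counts, and passing WT wells without it stood at 0.961 CPM. Over all wells the ratio was -0.26 without the highest well of each genotype, -1.62 for YFP1 and -0.33 for YFP2. At least 10 counts were found in 6 of 51 WT wells and 13 of 96 Renin-null wells. Of the other WT wells at that limit, 1 shared an index with well 22 and 4 did not.

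**Figure D1:**
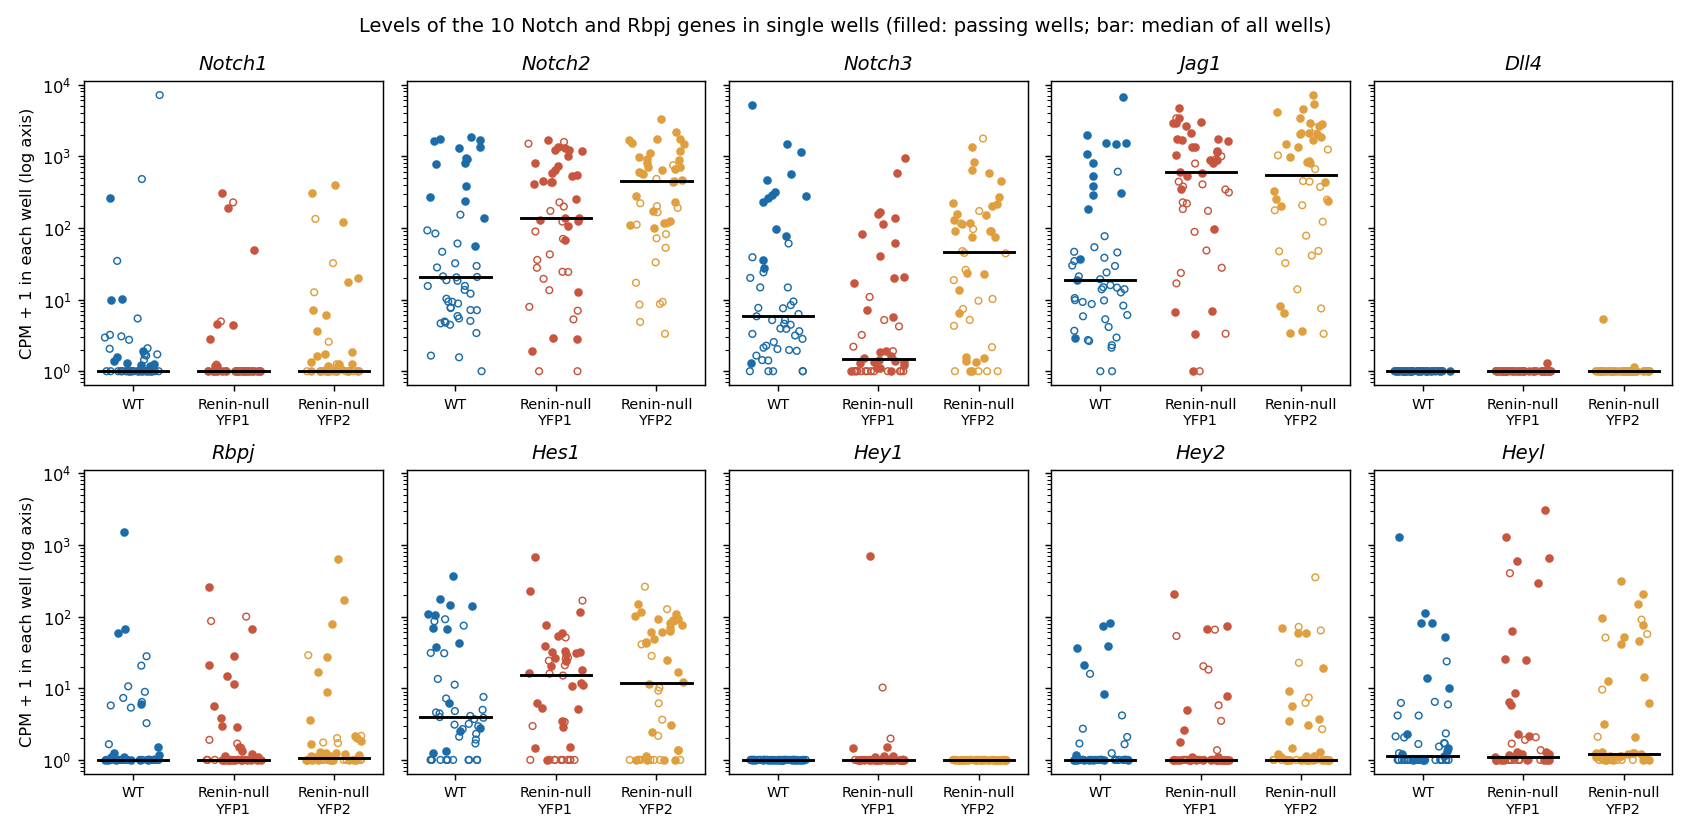
CPM + 1 of each of the 10 genes in every well on a log axis, for WT wells and for the Renin-null libraries YFP1 and YFP2, with passing wells filled and the median of all wells as a bar. Jag1 and Notch2 are high in most passing wells of each library, Notch3 is lower in YFP1, Dll4 reaches 4.27 CPM at most, and Hey1 9.22 CPM outside 1 well.

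Jag1 was the most abundant member, and Dll4, the other ligand among the members, was close to absent. Jag1, a Jagged ligand of vascular smooth muscle and other cells, lies on chromosome 2 (137081456 to 137116644). It was summed to 969 CPM in WT against 1504 CPM in Renin-null cells, with a log2 ratio of 0.63 (0.63 to 0.64). WT wells ranged from 0 to 6785 CPM (median 17.5) and Renin-null wells from 0 to 7170 CPM (median 596). In passing wells the medians were 531 CPM in WT, 1168 CPM in YFP1 and 1480 CPM in YFP2, and 41 of 57 Renin-null wells were above the WT median. The ratio was positive for either library (0.42 and 0.79), for passing wells (0.36) and without the highest well of each genotype (1.24), but -0.07 with the TMM factors of edgeR, another scaling for depth and composition. A single WT well (well 5) held 39.9% of the WT counts of Jag1. With every well thinned to 62000 counts, Jag1 had a count in 57.1% of 49 WT wells (95% interval 42.2% to 71.2%) and in 89.2% of 83 Renin-null wells (80.4% to 94.9%), and unthinned it had at least 1 count in 96.1% and 97.9% of wells. At least 10 counts of Jag1 were found in 35 of 51 WT and 84 of 96 Renin-null wells. Among passing wells the shares were close, with 14 of 15 WT (93.3%) and 55 of 57 Renin-null wells (96.5%). At least 100 counts were found in 13 of these 15 WT and 49 of these 57 Renin-null wells. The gap in shares over all wells was thus not seen in passing wells.

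Dll4, the Delta-like ligand of arterial endothelium, lies on chromosome 2 (119325784 to 119335962). No WT well held a count of it, which at a floor of 3 counts is under 0.0152 CPM over the WT wells, and the Renin-null wells held 33 counts. Of these, 31 were in 1 YFP2 well (well 83). That well was also the only well of the series with at least 100 counts of 3 or more of the 10 endothelial markers. It held 9 of those 10, with 3442 counts of Cdh5, 7120 of Kdr and 4636 of Pecam1, beside 9099 CPM of smooth muscle and pericyte markers. Outside it, Dll4 had 2 counts in the Renin-null wells.

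Rbpj, the factor to which all 4 receptors are known to signal, lies on chromosome 5 (53466152 to 53657362). Over all wells it stood at 98.4 CPM in WT against 9.69 CPM in Renin-null cells, with a log2 ratio of -3.34 (-3.39 to -3.29). This difference rested on 1 well. WT well 3 held 18006 of the 19472 WT counts, or 92.5%, and without the highest well of each genotype the levels were 7.41 and 6.48 CPM and the ratio was -0.19. Renin-null wells reached 632 CPM at most, WT wells 1492 CPM, and the median well held no count in both genotypes. At least 10 counts were found in 8 of 51 WT wells (15.7%, 95% interval 7.02% to 28.6%) and 16 of 96 Renin-null wells (16.7%, 9.84% to 25.6%), and at least 100 counts in 3 and 7 wells. The WT share at 10 counts includes the 4 wells that share an index with well 3. In passing wells the medians were 0.0887 and 0.166 CPM, which was 1 count in the median well of both genotypes. The 34 of 57 Renin-null wells (59.6%) above the WT median were thus those with any count. In WT 9 of 15 passing wells (60%) held a count. WT well 3 also held the highest WT counts of Notch2 (20622) and Notch3 (17886), 99.2% of the WT counts of Kdr, an endothelial marker, and 727 of the 730 WT counts of Rbpj-ps3, a processed pseudogene of Rbpj. Rbpj-ps1, another, had 0 WT and 286 Renin-null counts, and reads could have been split among these copies. Well 3 had 34354 CPM of smooth muscle and pericyte markers, 5919 CPM of Ren1 and 12.8 CPM of Akr1b7. The Renin-null wells with the most Rbpj counts were well 19 of YFP1 (49.9% of the counts of that library) and well 51 of YFP2 (51.2%). These wells had 52.9 and 43.3 CPM of smooth muscle and pericyte markers and 1.74 and 0.916 CPM of Akr1b7. By CPM the highest were well 36 of YFP1 (260 CPM) and well 72 of YFP2 (632 CPM). The part of cell type in these counts was not tested. A well without a count of Rbpj does not show at this depth that the gene was off.

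Among the target genes, Hes1 was found most often, then Heyl and Hey2, and Hey1 almost entirely in 1 well. Hes1, a repressor that is a direct target in many tissues, lies on chromosome 16 (30064384 to 30067796). It was summed to 65.8 CPM in WT against 46.1 CPM in Renin-null cells, with a log2 ratio of -0.51 (-0.54 to -0.48). WT wells ranged from 0 to 363 CPM (median 2.96) and Renin-null wells from 0 to 676 CPM (median 12.6), and these ranges overlapped. In passing wells the medians were 66.7 CPM in WT, 21.1 in YFP1 and 42.6 in YFP2, with 14 of 57 Renin-null wells above the WT median. The ratio was negative for passing wells (-0.83), for either library (-0.68 and -0.39) and without the highest well (-0.41). At least 10 counts of Hes1 were present in 18 of 51 WT and 55 of 96 Renin-null wells. In passing wells the shares were close, with 12 of 15 WT (80%) and 44 of 57 Renin-null wells (77.2%).

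Heyl, a Hey-family repressor known as a target of Notch3 in smooth muscle, lies on chromosome 4 (123233556 to 123249875). Its summed levels of 95.8 CPM in WT against 96.03 CPM in Renin-null cells gave a log2 ratio of 0.00 (-0.02 to 0.03). WT well 47 held 77.1% of the WT counts and Renin-null well 30 held 53.04% of the Renin-null counts. Without the highest well of each genotype the levels were 22.0 and 45.1 CPM and the ratio 1.04. The ratio was 0.85 for YFP1 and -1.56 for YFP2, with 172 and 32.5 CPM in these libraries, or 60.2 and 23.7 CPM without the highest well of each, so the size and sign of the difference rested on single wells and on the library. WT wells reached 1281 CPM and Renin-null wells 3101 CPM, with medians of 0.129 and 0.151 CPM, and at least 10 counts were found in 8 of 51 and 29 of 96 wells. In passing wells the medians were 1.33 and 0.272 CPM, 7 of 15 and 25 of 57 wells had at least 10 counts, and the ratio was -0.25.

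Hey2, a repressor of arterial smooth muscle and heart, lies on chromosome 10 (30832359 to 30842801) and is the member whose promoter window is printed above with the longer form of the core at 2 places. It was summed to 15.5 CPM in WT against 12.8 CPM in Renin-null cells, with a log2 ratio of -0.27 (-0.34 to -0.21). The median well held none, the highest held 80.9 CPM in WT against 352 CPM in Renin-null cells, and 6 of 51 and 19 of 96 wells had at least 10 counts, while in passing wells the order turned, with 6 of 15 and 12 of 57. The ratio was negative in either library, at -0.08 for YFP1 and -0.46 for YFP2.

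Hey1, a related repressor, lies on chromosome 3 (8663359 to 8667256). No WT well and no YFP2 well held a count. YFP1 held 3999 counts, of which 3985 (99.6%) were in well 17 at 688 CPM. That well had 60202 CPM of smooth muscle and pericyte markers and 7822 CPM of Akr1b7, a gene of renin cells, against 90 counts of the 10 endothelial markers together, 85 of them of Pecam1, 1 of Cdh5 and 4 of Kdr. A fold against the floor of 3 counts over the WT wells was at least 661, and without that 1 well the bound was a log2 ratio of at least 1.21, from 14 counts. The larger bound thus describes a single well.

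The ratio of the median gene, among 18720 for which one could be taken, was 1.17 on the log2 scale, and 67.6% of them were higher in Renin-null cells, so each member was also set against that median. A gene was called when it differed from the median by at least 2-fold. Genes with no count in 1 genotype were called from their bound, so the lower share can include genes without a WT count, such as C1qa. By that rule 2 of the 10 members were higher (Dll4 and Hey1), 7 were lower (all but these and Jag1) and Jag1 was neither, against 37.6% of all genes higher and 34.6% lower. The median log2 ratio of the 10 was -0.21, or -1.38 against all genes. Both members called higher had no count in WT and nearly all of their Renin-null counts in 1 well. In passing wells 2 were higher and 6 lower, against 38.4% and 35.5% of genes. Without the highest well of each gene, where Dll4 had no ratio and Hey1 only a bound, 0 were higher and 6 lower, against 37.5% and 35.0%. With genes found in at least 20% of wells as background, which leaves out Dll4 and Hey1, it was 0 and 5, against 33.6% and 30.7%. At 4-fold it was 1 and 2, against 28.4% and 20.0%. The 7 lower calls depend on the reference. With the ratio not set against the median, 2 members were at least 2-fold lower (Rbpj and Notch3) and 2 higher, against 18.5% and 52.4% of all genes. With the TMM factors of edgeR, which were 0.784 (WT) and 1.28 (Renin-null), the ratio of the median gene was 0.47. Rbpj, Notch3, Hes1 and Hey2 had a negative ratio of CPM over all wells, without the highest wells, in passing wells and in each library, and among these the value nearest to 0 was -0.19 for Rbpj, -0.62 for Notch3, -0.39 for Hes1 and -0.08 for Hey2. These settings share WT wells, and the sign of Hes1 and Hey2 turned with every well weighed alike, the mean over wells being 32.2 CPM in WT against 39.6 CPM in Renin-null cells for Hes1 and 5.45 against 13.1 CPM for Hey2.

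**Figure D2:**
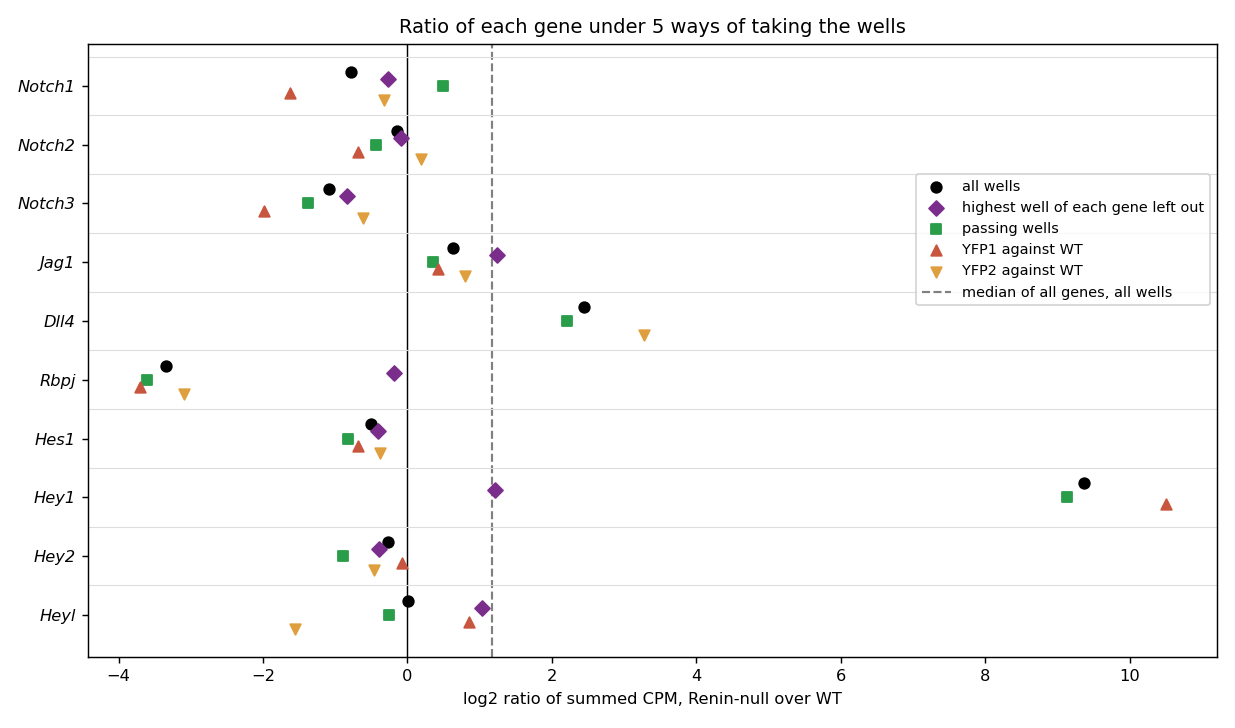
Log2 ratio of summed CPM, Renin-null over WT, for the 10 genes with all wells, without the highest well of each gene, with passing wells only and for YFP1 and YFP2 apart; the dashed line is the median of all genes (1.17). Rbpj moves from -3.34 to -0.19 and Hey1 from 9.37 to 1.21 without 1 well per genotype, Jag1 stays above 0 (-0.07 with TMM factors, not drawn) and Notch3 below 0, and Heyl has a different sign in YFP1 and YFP2. Ratios of Dll4 and Hey1 are lower bounds against the floor.

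The most abundant members were either high or close to 0 in most WT wells. In WT, Notch2 had at least 100 counts in 15 wells, with a median of 10507 counts there, and 1 to 99 counts in 35 wells, with a median of 9. The same held for Jag1 (14 wells with a median of 5672 counts and 35 with a median of 11) and Notch3 (14 wells with a median of 2134 and 32 with a median of 4). Of the wells with at least 100 counts, 14 of 15 for Notch2, 13 of 14 for Jag1 and 14 of 14 for Notch3 were passing wells. In Renin-null cells 60 wells had at least 100 counts of Notch2 and 61 had that many of Jag1, of which 53 and 49 passed. For Hes1 the Renin-null wells were spread more evenly, with 34 wells at a median of 434.5 counts and 38 wells of 1 to 99 counts at a median of 14.5. For Notch2, Notch3 and Hes1 the lower median of WT wells thus went with the 36 WT wells that did not pass, whose median mitochondrial share was 64.9%. For Jag1 the WT median was lower in passing wells too, at 531 CPM against 1335 CPM in Renin-null cells. The part of cell quality in the difference was not tested.

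**Figure D3:**
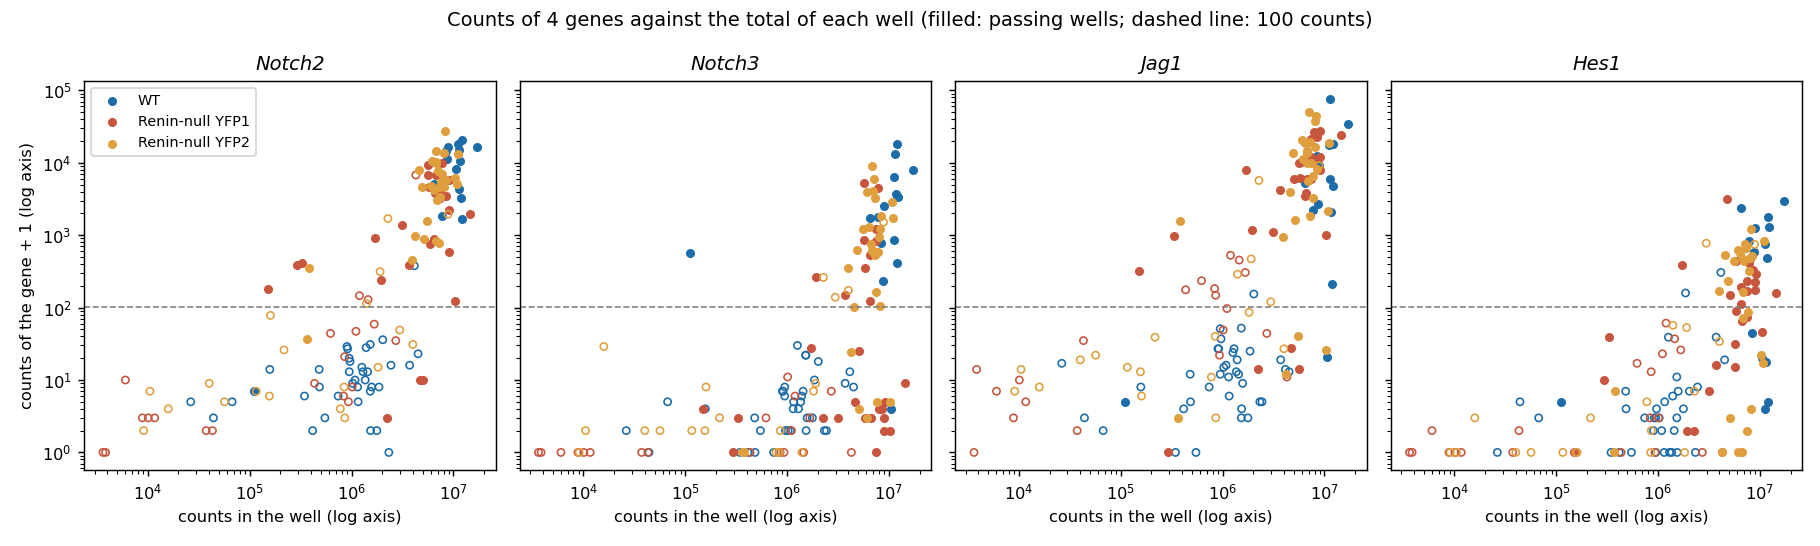
Counts + 1 of Notch2, Notch3, Jag1 and Hes1 in each well against the counts of the well, both on log axes, with passing wells filled and a dashed line at 100 counts. Most open WT wells lie below the line for each gene, while 14 of 15 filled WT wells for Notch2 and Notch3 and 13 of 15 for Jag1 lie above it.

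Per length of exon, Jag1 had the highest level in both genotypes and Notch2 the next. In WT cells the level per kilobase of exon was 166 CPM for Jag1, 69.2 for Notch2, 38.3 for Notch3, 32.3 for Hes1 and 18.7 for Heyl, followed by Rbpj at 7.72, Hey2 at 3.38 and Notch1 at 3.22. In Renin-null cells it was 258 CPM for Jag1, 62.5 for Notch2, 22.6 for Hes1, 18.8 for Heyl and 18.0 for Notch3, with Hey1 at 3.07, Hey2 at 2.79, Notch1 at 1.87, Rbpj at 0.760 and Dll4 at 0.0215. Jag1 and Notch2 held places 1 and 2 in WT, YFP1 and YFP2, also as a mean over wells and without the highest well. Notch3 and Hes1 changed places in WT when the longest transcript was used as length, and in the Renin-null libraries Heyl was in place 3 in YFP1 (33.7 CPM per kilobase) and in place 5 in YFP2 (6.35). Rbpj moved from place 6 to place 8 in WT without its highest well, at 0.581 CPM per kilobase.

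**Figure D4:**
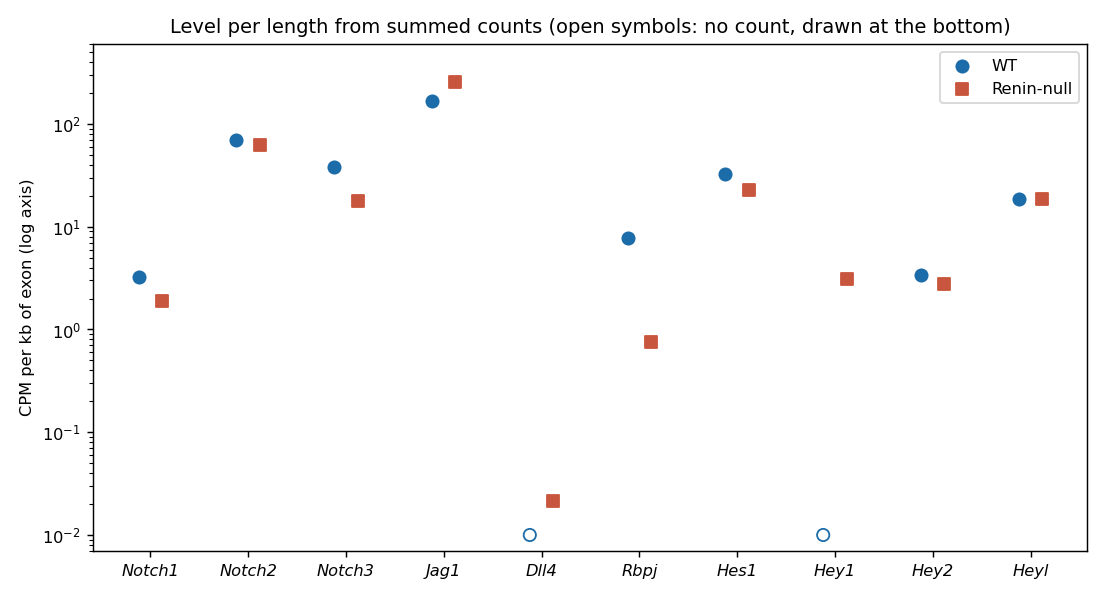
CPM per kilobase of exon from summed counts on a log axis for WT and Renin-null cells. Jag1 (166 and 258) and Notch2 (69.2 and 62.5) are the highest, and the open symbols of Dll4 and Hey1 in WT stand for no count.

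Receptor and ligand were often found in the same wells. At least 100 counts of both Notch2 and Jag1 were present in 13 of 51 WT wells and 54 of 96 Renin-null wells, and of both Notch3 and Jag1 in 13 and 33. Within passing wells, Notch2 was at that limit in 14 of 15 WT wells, Jag1 in 13 and both in 13, and in Renin-null cells in 53, 49 and 48 of 57, so that with each gene in most passing wells they met in most. A receptor, Jag1 and a target gene at that limit were found together in 11 WT wells and 37 Renin-null wells, and Rbpj was added to them in 3 and 4. Rbpj and Hes1 met in 3 WT and 4 Renin-null wells, and Rbpj and Hey2 in 2 and 0. The median well held 0 members at that limit in WT against 2 in Renin-null cells, the richest well 8 and 7, and 31 WT and 26 Renin-null wells held none.

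The other genes of the pathway were taken from a list of 51, all of which were in the count tables and 47 of which had a ratio. Against the median of all genes 10 were higher, 20 lower and 17 neither, with a median log2 ratio of 0.57 (-0.60 against all genes), beside 37.6% of all genes higher and 34.6% lower. On the scale of CPM alone, 23 were at least 2-fold higher and 13 lower, beside 52.4% and 18.5% of all genes. By role and against the median, the 10 genes of receptor cleavage had 2 higher and 4 lower, the 12 of endocytosis and turnover 1 higher and 6 lower, the 6 coactivators 2 and 2, the 6 corepressors 1 and 3, the 6 further targets, 5 of which had a ratio, 1 and 3, and the 5 genes of glycosylation, 4 of which had a ratio, 1 and 1.

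Among the more abundant genes of that list, Myc, a growth regulator and known Notch target, had the largest ratio. It was 0.702 CPM in WT against 76.8 CPM in Renin-null cells, with a log2 ratio of 6.77, with at least 100 counts in 8 of 96 Renin-null wells and in no WT well. A single well held 39.5% of these counts, and the ratio was 7.02 without the highest well, 6.66 in YFP1 and 6.86 in YFP2. Kat2b, an acetyltransferase that works as a coactivator, followed at 5.61, Neurl1b, a ubiquitin ligase that acts on ligands, at 4.26 and Aph1c, a subunit of gamma-secretase, at 3.89. Aph1c shares most of its sequence with Aph1b, so counts of these neighbours could have been split between them.

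Among the same more abundant genes, the smallest ratios were those of Dtx1, a ubiquitin ligase of receptor trafficking, at -6.44, Mib2, a ligase of ligand endocytosis, at -4.26, Maml1, a coactivator of the Rbpj complex, at -4.10 and Ncstn, a subunit of gamma-secretase, at -1.88. Maml1 stood at 163 CPM in WT against 9.53 CPM in Renin-null cells, and its ratio was -3.92 without the highest well, -4.53 for YFP1 and -3.82 for YFP2. At least 100 counts of it were found in 4 of 51 WT and 4 of 96 Renin-null wells. For Mib2 and Ncstn 1 WT well held 95.7% and 91.3% of the WT counts, and without the highest wells their ratios were -0.61 and 0.61. Dtx1 kept -5.30, from 3 WT wells with at least 100 counts and no such Renin-null well.

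Of the genes named whatever their values, Notch4, the receptor of endothelium, had no WT count and 509 Renin-null counts, 230 of them in well 89, a well with 22599 CPM of smooth muscle and pericyte markers and 8 counts of the endothelial markers, none of them of Cdh5 or Kdr. That same well held 4223 counts of Notch1, the highest of any Renin-null well. Jag2 had 59 counts in 1 WT well and 279 in Renin-null cells, 227 of them in well 83, the well with endothelial markers and Dll4. Dll1 had 0 and 1 counts and Hes5 none. Nrarp, a feedback inhibitor and target, stood at 12.8 CPM in WT against 9.13 CPM in Renin-null cells, with a log2 ratio of -0.49 that was -2.53 for YFP1, 0.22 for YFP2, -1.72 in passing wells and -1.26 with near-identical wells counted once. Well 47, the richest YFP1 well for Notch3, held 99.8% of its YFP1 counts.

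**Figure D5:**
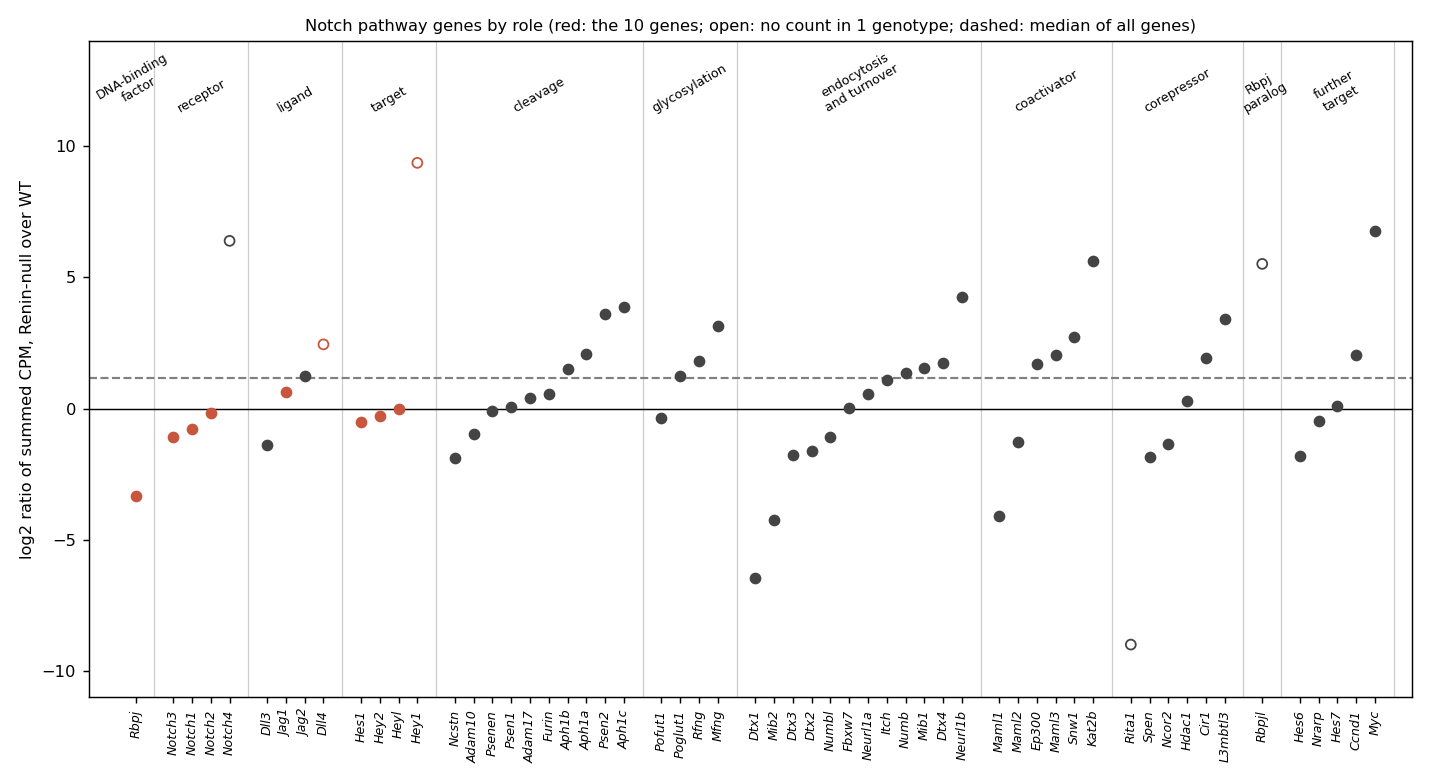
Log2 ratio of summed CPM, Renin-null over WT, of the 10 genes (red) and of the wider list (dark) grouped by role, with the median of all genes as a dashed line; open symbols have no count in 1 genotype and are bounds against the floor. Genes on either side of the line occur in each role with more than 3 genes, Myc has the highest filled symbol (6.77) and Dtx1 the lowest (-6.44).

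Likeness across wells was described in the Renin-null passing wells with near-identical pairs counted once (28 in YFP1 and 26 in YFP2), as the lower of the Spearman correlations of log2(CPM + 1) in the 2 libraries, over 5428 genes found in at least 50% of these wells. Points share library, depth and the composition of a well, so the values are descriptions. Of the members, 6 had at least 1 count in enough wells. Rbpj reached 10 counts in only 15 of the 57 passing Renin-null wells and Heyl in 25. Their ranks below thus rest largely on wells with few counts or none. Notch3 was most like Cd200 (rho 0.53 in YFP1 and 0.68 in YFP2), Col4a1, a basement membrane collagen (0.48 and 0.61), and F2r, a thrombin receptor (0.58 and 0.46). Tagln and Myh11, genes of the contractile apparatus, held places 7 and 9 for Notch3. Notch2 was most like Zfp729a (0.62 and 0.57), Gm9973 and Map3k20, and Jag1 most like Zfp729a (0.59 and 0.61), Gm45551 and Gm9973. Rgs5, a marker of pericytes and renin cells, was in place 6 for Notch2 (0.44 and 0.76) and in place 13 for Jag1 (0.38 and 0.68). For Hes1 the nearest genes were Ppid, Mzt1 and Ebf1, for Heyl Bcar1, Nsf and Aspn, and for Rbpj Esd, Eloc and Chchd3, with lower correlations of 0.47 to 0.50 for these 9 genes. Notch2 with Jag1 gave 0.21 in YFP1 and 0.71 in YFP2, Notch3 with Heyl 0.13 and 0.65, and Notch3 with Hes1 -0.04 and 0.50, so these pairs differed between the libraries.

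The labelled cell type was checked against its markers. The 8 smooth muscle and pericyte genes summed to 22549 CPM in WT against 26208 CPM in Renin-null cells, with Rgs5 the most abundant, and 0 of the 8 were called higher and 5 lower against the median of all genes, beside 37.6% and 34.6% of all genes. Acta2, Myh11 and Tagln had log2 ratios of -0.02, -0.58 and 0.61, and Cnn1, Rgs5, Cspg4 and Mcam of 0.86, 0.35, -0.52 and -0.01. On the scale of CPM alone, only 1 of the 8 was at least 2-fold lower, Pdgfrb, and 0 were higher. Pdgfrb, a receptor of pericytes, was summed to 503.5 CPM (WT) and 83.4 CPM (Renin-null), and its log2 ratio was -2.59 (-2.44 without the highest wells, -2.69 for YFP1 and -2.52 for YFP2), and its part in the lower level of Notch3 was not tested. Akr1b7 was at 4528 and 2011 CPM. The 10 endothelial genes summed to 40.4 CPM in WT against 268 CPM in Renin-null cells (55.5 CPM over YFP1 and 446 CPM over YFP2), and well 83 held 63.4% of the Renin-null counts, without which the level was 98.1 CPM, while WT well 43 held 75.5% of the WT counts, without which it was 9.87 CPM. Emcn was the most abundant of them, and Cdh5, Tek, Egfl7 and Plvap had no count in WT. Podocyte genes summed to 86.1 and 559 CPM (most abundant Synpo), proximal tubule genes to 24.9 and 310 (Miox), loop and distal tubule genes to 0.126 and 104.01 (Slc12a1), collecting duct genes to 9.67 and 45.5 (Aqp2), fibroblast genes to 9.21 and 807 (Col3a1), and macrophage and leukocyte genes to 0.985 and 3.94 (Ptprc). Podxl, Cd68, Adgre1, C1qa and C1qb had no count in WT. Against the median of all genes 7 of 10 endothelial, 4 of 5 podocyte, 5 of 5 proximal tubule, 3 of 3 loop and distal tubule, 1 of 3 collecting duct, 4 of 5 fibroblast and 2 of 6 macrophage and leukocyte genes (4 of which had a ratio) were called higher, beside 37.6% of all genes. The summed level of each of these 7 lists was thus higher over the Renin-null wells beside the Notch genes described above, and over each library but for collecting duct genes in YFP1 (2.71 CPM, against 81.3 in YFP2). Podocyte genes stood at 142.6 CPM in YFP1 and 906 in YFP2. Single wells held 58.3% of the Renin-null podocyte counts, 62.03% of the collecting duct counts and 78.2% of the loop and distal tubule counts. The part of these lists in the Notch levels was not tested.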

How the data were processed

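RNA of single kidney cells of the 2 genotypes was analysed. Per the submitters' processing notes, the authors used FastQC 0.11.5, Trimmomatic 0.39 and Salmon 0.11.2 on GRCm38.p6 (mm10), and by the study's methods they summed transcripts to genes with tximport (lengthScaledTPM). The deposited tables hold the authors' expected counts per gene and well, corrected for transcript length and not normalized for depth, and were rounded to whole counts. For their own comparison the authors applied SCTransform.

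Counts were summed per genotype and scaled to CPM. A genotype at 0 was set to 3 counts, no ratio was taken where both held 3 or fewer, and the median of all ratios was subtracted before calling at 2-fold. Intervals are exact Poisson for sums, conditional binomial for ratios and Clopper-Pearson for shares. Those of sums and ratios treat reads as independent, and since PCR copies are not independent molecules they are narrower than the error in molecules. Those of shares treat wells as independent, which near-identical wells and wells sharing an index are not. The ratio and its interval were tested on simulated data. Lengths and coordinates came from GENCODE vM21, promoters from RefSeq.

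The 10 members, the wider pathway list and the 9 marker lists were chosen with earlier results of these data known. Named were the members, Ren1, Akr1b7, Acta2, Myh11 and Tagln, the 4 largest and 4 smallest ratios of the wider list at 10 CPM or more in the higher genotype, Notch4, Jag2, Dll1, Nrarp and Hes5, the 3 genes most like each member, and the most abundant gene of each marker list. Other markers, Rbpj-ps1, Rbpj-ps3 and Aph1b were named after their values were seen. Marker lists are given as sums and counts, and not every marker is named. No doublet caller was run. Software was Python 3.11.15, numpy 2.4.6, pandas 2.3.3, scipy 1.17.1, matplotlib 3.10.9, R 4.3.3, edgeR 4.0.16 (TMM factors only), Seurat 5.3.0 and sctransform 0.4.2. Some alternatives were added after seeing the data and are named as such in the closing section.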

Additional observations from a re-analysis of the deposited data

How the results depend on the processing

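No paired analysis was possible because the labels give no replicate that is shared between the genotypes and no test was run. The main settings called 2 of the 10 members higher and 7 lower at 2-fold against the median of all genes, with a median of -1.38. Members called higher numbered 0 with the mean over wells of CPM, with the highest well of each gene left out and with a background of genes found in at least 20% of wells, and 1 with YFP1 alone, YFP2 alone, wells thinned to 62000 counts, SCTransform or a 4-fold limit. Dll4 and Hey1 had no ratio with the mean over wells. Dll4 also had none without the highest wells, in YFP1 alone, with thinned wells or with SCTransform, and Hey1 none in YFP2 alone. Lower counts in these settings thus partly reflect members without a ratio. Members called lower numbered 4 with the mean over wells, 0 with the difference of mean log2(CPM + 1), 3 with thinned wells, 4 with SCTransform, 2 at 4-fold and 2 with the ratio not set against the median. Shares of all genes called, given above, cover the main settings, passing wells, the 20% background, 4-fold and the ratio not set against the median. They also cover the highest wells left out. Counts in the other settings have no such share beside them, so they describe the setting and give no result about the members. The median moved to -0.996 with the mean over wells, -2.08 without the highest wells, -1.46 in passing wells, -0.47 with thinned wells and -0.84 with SCTransform, and it reversed to 0.18 with the difference of mean log2(CPM + 1). That measure also reversed Notch2 (1.98), Dll4 (-0.094), Hes1 (0.45), Hey2 (0.32) and Heyl (0.40) relative to the median. Jag1 went from -0.54 to 3.23, so the 2 members called higher by that measure were Jag1 and Notch2, not Dll4 and Hey1. Relative to the median, Jag1 was also positive with the mean over wells (0.12), thinned wells (0.38) and SCTransform (0.02). Heyl reversed in YFP1 (0.14). Without its highest well Hey1 had only a lower bound, of -0.67 relative to the median, which cannot show a reversal. Added after seeing the data were TMM factors without the median, with 4 members lower, passing wells without the highest well, with 1 higher, marker lists without their highest well, and the limit of 100 counts. The causes of these shifts were not tested further. TMM factors cancel when the median is subtracted, so that setting could not change a value. Totals without mitochondrial genes and Ren1 and near-identical wells counted once kept both counts and the median within the limits used. With 1 sample for each genotype and few wells per gene, depth and single wells limit Rbpj, Notch1, Heyl, Hey1, Hey2 and Dll4. Single wells also limit Jag1, whose ratio went from 0.63 to 1.24 without the highest wells. These limits were not ranked.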
